A study of Mus musculus with 20 samples.

Results

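The AP-1 transcription factor genes of the Fos and Jun families held by the count table were Fos, Fosb and Fosl2 of the Fos family and Jun, Junb and Jund of the Jun family, 6 of 12988 genes. They were chosen by gene family, with earlier results of these data known, and all 6 passed the filter on low counts. Fosl1, the remaining member of these families, was not analysed here. Their RNA was followed across 20 libraries of the adBNST (anterodorsal bed nucleus of the stria terminalis), which lies in the basal forebrain and was microdissected from mice of both sexes. Mice entered at 7 to 9 weeks of age and were either kept as controls or put through chronic variable mild stress (CVMS), a randomised programme of daily minor stressors lasting 6 weeks. The 4 groups were female control, female stressed, male control and male stressed, with 15 mice each. Tissue of 3 mice was pooled for each library, which gave 5 libraries a group, so every spread below is a spread between pools. All mice were killed under ketamine anaesthesia. Stressed mice were taken 1 hour after a last stressor of wet bedding, and the matching time in controls and the mouse strain are not given in the sources used here.

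AP-1 is a dimer of leucine zipper proteins in which a Fos protein pairs with a Jun protein, or Jun proteins pair with each other, to bind DNA. In neurons Fos, Fosb and Junb are immediate early genes, whose transcription follows synaptic activity within minutes through kinases that act on CREB and on serum response factor, whereas Jund RNA is present at a steadier level. Fosb also yields a truncated splice form, ΔFosB, which is long-lived and is best known from striatal neurons exposed to repeated drugs or stress. The counts are per gene and do not separate these Fosb transcripts.

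The promoter windows of the members are shown because every pair among Fos, Fosb, Fosl2 and Junb was correlated across libraries, as described with its limits further on. Junb was also correlated with Jund, and no pair that included Jun passed. Whether motifs in the windows have a part in this was not tested. Each run below is the 250 bases before the RefSeq gene start (GRCm38.p6), written 5′ to 3′ on the gene's own strand. The windows are chr12:85473640-85473889 on the plus strand for Fos, chr7:19310046-19310295 on the minus strand for Fosb, chr5:32136222-32136471 on the plus strand for Fosl2, chr4:95052223-95052472 on the minus strand for Jun and chr8:84978749-84978998 on the minus strand for Junb. Capitals mark matches to the motifs searched.
Fos: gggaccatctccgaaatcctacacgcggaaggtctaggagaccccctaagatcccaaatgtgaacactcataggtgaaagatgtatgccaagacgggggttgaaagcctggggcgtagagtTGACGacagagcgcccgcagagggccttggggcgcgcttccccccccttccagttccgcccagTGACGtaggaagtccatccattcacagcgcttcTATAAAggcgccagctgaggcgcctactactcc
Fosb: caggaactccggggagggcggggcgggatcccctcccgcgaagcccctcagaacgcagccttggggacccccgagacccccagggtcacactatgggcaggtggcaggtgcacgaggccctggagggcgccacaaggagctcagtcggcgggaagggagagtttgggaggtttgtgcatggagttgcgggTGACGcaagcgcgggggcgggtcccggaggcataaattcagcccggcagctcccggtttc
Fosl2: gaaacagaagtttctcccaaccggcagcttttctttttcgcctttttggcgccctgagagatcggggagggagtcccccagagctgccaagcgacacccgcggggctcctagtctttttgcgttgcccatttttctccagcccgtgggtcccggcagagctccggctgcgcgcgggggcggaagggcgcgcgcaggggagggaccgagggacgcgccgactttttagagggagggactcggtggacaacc
Jun: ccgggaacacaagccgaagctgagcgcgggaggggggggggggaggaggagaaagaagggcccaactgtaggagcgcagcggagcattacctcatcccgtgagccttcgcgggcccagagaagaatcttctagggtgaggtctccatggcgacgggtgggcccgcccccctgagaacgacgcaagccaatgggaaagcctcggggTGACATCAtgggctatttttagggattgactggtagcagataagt
Junb: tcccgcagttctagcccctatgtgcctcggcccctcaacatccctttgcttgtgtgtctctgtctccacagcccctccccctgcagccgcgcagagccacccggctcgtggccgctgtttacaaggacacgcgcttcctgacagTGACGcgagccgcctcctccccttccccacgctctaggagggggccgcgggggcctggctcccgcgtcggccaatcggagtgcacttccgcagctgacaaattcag

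Both strands of each window were searched for the cyclic AMP response element TGACGTCA, its core TGACG, the AP-1 sites TGACTCA and TGAGTCA, the related site TGACATCA, the TATA box TATAAA and the CArG box of serum response factor. A full element also holds the core. The core lay 129 to 125 and again 66 to 62 bases before the start of Fos, 60 to 56 bases before that of Fosb and 106 to 102 bases before that of Junb. It was found in 27.2% of the 10338 windows available for genes of the table, so 3 of the 6 members held a motif that is common in such windows. Fos alone among the members held the TATA box letters, 33 to 28 bases before its start, a match found in 5.86% of the windows. Jun held TGACATCA 45 to 38 bases before its start, against 1.38% of the windows. No match to these motifs was present in the windows of Fosl2 and of Jund. The RefSeq start of Jund lies upstream of the GENCODE start, and its window is not shown. The window of Fosl2 lies inside the gene's GENCODE span, downstream of the GENCODE start, so bases before that start were not searched. No member's window held the full element, the AP-1 sites or the CArG box, which 2.85%, 2.59% and 1.07% of the windows held. Such a match describes letters in the window and was not tied to binding by any measurement here.

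In the annotation of the same build (GENCODE M21, GRCm38), Fos spans positions 85473890 to 85477273 of chromosome 12, Fosb 19302696 to 19310051 of chromosome 7, Fosl2 32135801 to 32157842 of chromosome 5 and Jun 95049034 to 95052222 of chromosome 4. Junb spans 84974484 to 84978718 and Jund 70698949 to 70700616 of chromosome 8. No other gene overlaps Fos, Fosb or Fosl2. Jun overlaps the antisense gene Junos, Junb overlaps Prdx2 on the opposite strand and Jund overlaps the antisense gene Gm11175. The kit was stranded, but whether counting used the strand is not given in the sources used here, so the values of the 3 Jun genes are uncertain by any reads of those neighbours.

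Total counts ran from 2707881 to 33595388 a library, and the shallowest library, female control replicate 4, held 36 reads of Fos and 38 of Fosb. A striatal marker score, the mean log2 CPM (CPM is a gene's count relative to its library's total, after scaling for composition) of 14 striatal neuron genes centred over the 20 libraries, was used because the striatum borders the adBNST. All 14 genes were present in every library, the lowest being Ido1 at 2.03 CPM. The summed level of the 14 genes was 3606 to 6417 CPM in female controls, 3501 to 7250 CPM in stressed females, 3376 to 4264 CPM in male controls and 4820 to 7271 CPM in stressed males. The score of male controls, -0.55 to -0.18, lay below that of stressed males, -0.04 to 0.61, with no overlap. Female controls spanned -0.40 to 0.42 and stressed females -0.50 to 0.58. Among female controls only replicate 3, at -0.40, lay within the range of male controls. In bulk tissue, fewer cells of a type and less RNA per cell cannot be told apart. Summed astrocyte markers, all 11 of 11 present, were also lower in male controls (5117 to 5239 CPM) than in stressed males (5403 to 5658 CPM) and female controls (5400 to 6045 CPM). Slc1a2 alone made up 3113 CPM of that sum on average over the 20 libraries. The mean log2 level of the 11 genes, centred, did overlap. It was -0.06 to 0.07 in male controls, -0.16 to 0.03 in stressed males and -0.03 to 0.10 in female controls. The ranges of the summed oligodendrocyte (14 of 14 genes), microglial (11 of 11), endothelial (10 of 10) and thalamic (10 of 10) markers overlapped among all 4 groups, as did those of the 6 of 13 hypothalamic and 6 of 13 choroid plexus genes in the table. Of 13 genes picked as marks of the adBNST, 12 were in the table, with a summed level of 2317 to 2808 CPM, and Cyp19a1 was not analysed here.

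The members covered a wide range of levels. Per kilobase of the union of exons, Jund had a mean level of 83.5 CPM per kb over the 20 libraries, followed by Junb at 19.1, Jun at 10.1, Fos at 6.68, Fosl2 at 3.41 and Fosb at 3.23 CPM per kb. Fosl2 and Fosb, with SDs over libraries of 1.05 and 0.774 CPM per kb, did not differ beyond their spread. Relative spread was smallest for Jund, the member with the highest level, but did not otherwise follow the order of levels. The coefficient of variation over all libraries was 7.90% for Jund and 11.1% for Jun, against 21.7% for Junb, 24.0% for Fosb, 25.7% for Fos and 30.7% for Fosl2. The plot of levels by group shows the tight Jun and Jund values beside the wide Fos family values.

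**Figure D1:**
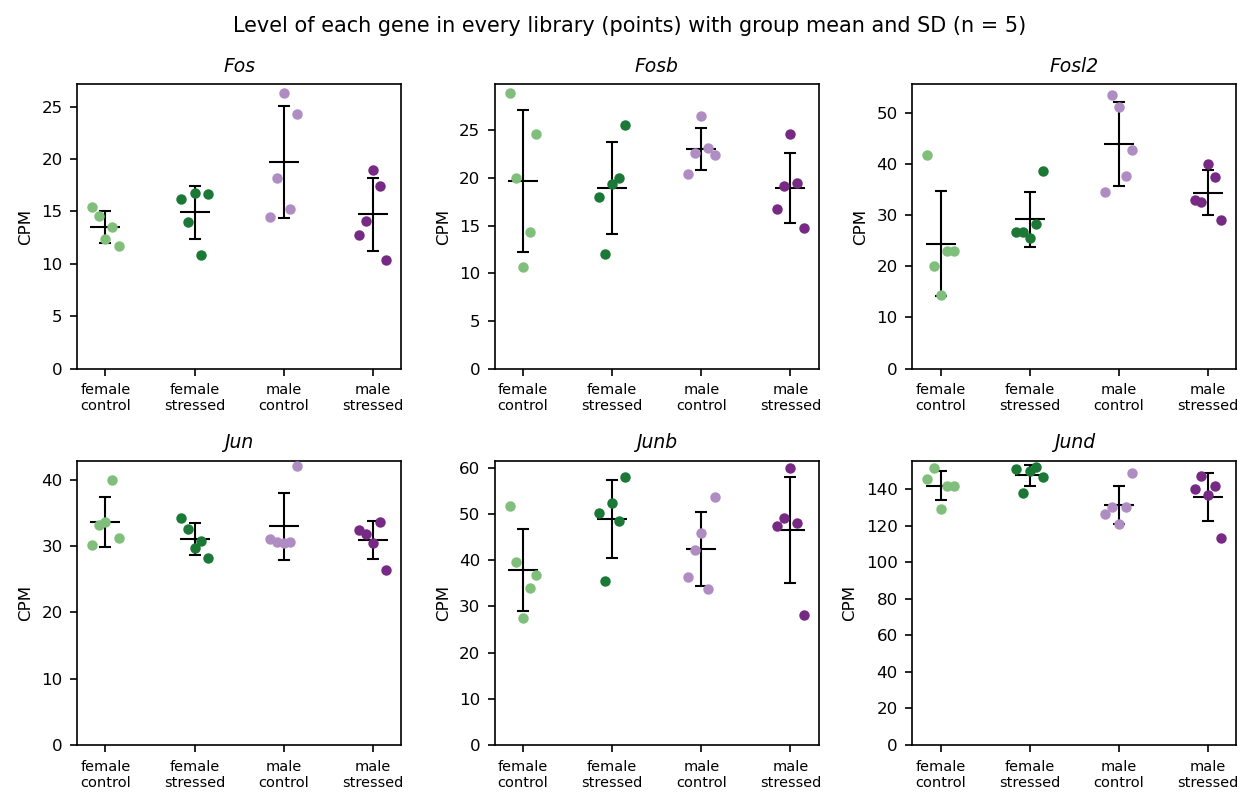
Level of each member in CPM (vertical axes) in the 4 groups (horizontal axis); each point is 1 library, and the bar is the mean ± SD of the 5 libraries of a group. Fosl2 sits highest in male controls, between 34.6 and 53.7 CPM, and overlaps the other groups there.

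Fos, the founding member and the usual marker of recently active neurons, was measured in replicates 1 to 5 at 15.5, 14.5, 12.3, 13.6 and 11.7 CPM in female controls. Stressed females had 16.2, 14.02, 16.8, 10.9 and 16.7 CPM. Male controls had 14.5, 18.2, 26.3, 15.2 and 24.3 CPM. Replicates 3 and 5 of the male controls stood above every library of the other groups, and the remaining male controls lay among them. Stressed males had 12.8, 14.1, 18.9, 17.5 and 10.4 CPM, and their range overlapped all other groups. By group mean, male controls (19.7 ± 5.36 CPM, SD, n = 5) came first, followed by stressed females (14.9 ± 2.52 CPM), stressed males (14.7 ± 3.47 CPM) and female controls (13.5 ± 1.54 CPM), and the ranges of all 4 groups overlapped.

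Fosb, the source of both full-length FosB and ΔFosB, was measured at 28.9, 20.02, 10.6, 14.3 and 24.7 CPM in female controls. In stressed females it stood at 18.02, 12.01, 19.4, 19.98 and 25.5 CPM. Male controls were narrow, at 20.5, 22.6, 26.5, 23.1 and 22.5 CPM. Female controls held both the lowest and the highest library of all 20, so their range covered that of every other group. Stressed males had 16.8, 19.2, 24.6, 19.4 and 14.8 CPM, of which 4 lay below all male controls and replicate 3 lay among them. Group means were 23.02 ± 2.18 CPM in male controls, 19.7 ± 7.43 CPM in female controls, 18.98 ± 4.83 CPM in stressed females and 18.9 ± 3.68 CPM in stressed males, and the ranges of all 4 groups overlapped here too.

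Fosl2, which encodes Fra-2, a Fos protein without the activation domain of Fos and FosB, was measured at 41.8, 20.1, 14.3, 22.96 and 23.1 CPM in female controls. Stressed females had 26.7, 26.8, 25.6, 28.3 and 38.8 CPM. Male controls had 34.6, 53.7, 51.2, 37.8 and 42.8 CPM. Of the female controls, only replicate 1 reached into the range of the male controls, and the other 4 lay below all of them. Stressed males had 33.0, 32.7, 40.03, 37.6 and 29.04 CPM, with 3 libraries below all male controls. The order of the means was 44.03 ± 8.26 CPM in male controls, 34.5 ± 4.35 CPM in stressed males, 29.2 ± 5.43 CPM in stressed females and 24.5 ± 10.3 CPM in female controls, and the ranges of all neighbours in that order overlapped.

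In the Jun family, Jun, whose protein is the classical partner of Fos and a substrate of JNK kinases, had nearly the same level in every group. Its means were 33.6 ± 3.79 CPM in female controls, 32.95 ± 5.08 CPM in male controls, 31.07 ± 2.39 CPM in stressed females and 30.9 ± 2.82 CPM in stressed males. Apart from male control replicate 5 at 42.02 CPM, the other 4 male controls lay between 30.4 and 31.1 CPM, inside the range of all other groups.

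Junb, an immediate early gene whose protein binds the same sites as Jun with weaker activation, was measured at 51.7, 39.6, 27.4, 33.9 and 36.8 CPM in female controls. Stressed females had 50.1, 35.4, 52.4, 48.5 and 58.01 CPM. Male controls stood at 36.4, 42.3, 45.9, 33.8 and 53.7 CPM. Female control replicate 1 lay among the stressed females and the other 4 female controls lay below 4 of the 5 stressed females. Stressed males had 47.4, 49.2, 59.8, 48.1 and 28.2 CPM, with replicate 5 below all other stressed males. Means ran from 48.9 ± 8.36 CPM in stressed females through 46.5 ± 11.5 CPM in stressed males and 42.4 ± 7.93 CPM in male controls to 37.9 ± 8.95 CPM in female controls, and neighbours in that order did not differ beyond their spread.

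Jund, whose protein is the main Jun protein of resting cells, ranged from 113.4 to 152.5 CPM over all libraries. Its group means were 147.7 ± 5.82 CPM in stressed females, 142.1 ± 8.13 CPM in female controls, 135.9 ± 13.2 CPM in stressed males and 131.3 ± 10.5 CPM in male controls. Ranges of the 4 groups overlapped. Stressed male replicate 5 held the lowest value of its group for every member, Jund included (113.4 CPM).

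No member differed between stressed and control females in the edgeR test on all 12988 genes, adjusted by the Benjamini-Hochberg method, with 0 of 6 at an adjusted p under 0.05, 0 at an unadjusted p under 0.05, and 0 by DESeq2 and limma-voom. The background in that comparison was 0% of all genes. Junb had the smallest p of the members, with a log2 fold change of 0.34 ± 0.18 (SE; a 1.26-fold ratio, adjusted p = 0.703). Fosl2 gave 0.23 ± 0.20, Fos 0.12 ± 0.18 and Fosb -0.11 ± 0.21 on the same scale.

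In males, 0 of 6 members were called for stress (0.00770% of all genes were), 1 had an unadjusted p under 0.05, and DESeq2 and limma-voom called 0. That member was Fos, with a log2 fold change of -0.39 ± 0.17 (adjusted p = 0.272). Fosl2 and Fosb had estimates of -0.33 ± 0.19 (adjusted p = 0.434) and -0.26 ± 0.20 (adjusted p = 0.585), and Junb one of 0.13 ± 0.18 (adjusted p = 0.808). Leaving out stressed male replicate 5, the lowest of its group for every member, gave -0.26 for Fos, -0.17 for Fosb and 0.28 for Junb. Averaged over the sexes, no member was called (0% of all genes), 0 had an unadjusted p under 0.05, and neither DESeq2 nor limma-voom called 1; Junb came nearest at 0.23 ± 0.13 (adjusted p = 0.438).

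Between control males and control females, 0 of 6 members were called by edgeR (0.747% of all genes were), although 2, Fos and Fosl2, had an unadjusted p under 0.05. Fosl2 was 1.73-fold as high in males on the fitted scale, with a log2 fold change of 0.79 ± 0.20 (adjusted p = 0.0631), and stood at rank 150 of 12988 genes. DESeq2 called Fosl2 (adjusted p = 0.0198) and limma-voom called 0 members. Leaving out female control replicate 1, the high library of its group, gave 1.16 with an adjusted p of 0.000632. Fos had a log2 fold change of 0.51 ± 0.18 (adjusted p = 0.169). For neither of them, nor for any other member, did the CPM ranges of the 2 groups separate, against 3.97% of all genes whose ranges did, and none separated male controls from stressed males, against 4.30% of all genes.

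Stressed males and stressed females were closer: 0 of 6 members were called (0.0770% of all genes were), 0 had an unadjusted p under 0.05, and DESeq2 and limma-voom called 0. Fosl2 gave 0.23 ± 0.19 and Jund -0.12 ± 0.06, with adjusted p of 0.840 and 0.719. The interaction of sex and stress, taken as the stress difference of males less that of females, was called for 0 of 6 members (0% of all genes) and by neither other tool, with 0 at an unadjusted p under 0.05. Its estimates were -0.55 ± 0.28 for Fosl2 (adjusted p = 0.494) and -0.50 ± 0.25 for Fos (adjusted p = 0.491), so the larger sex difference of Fosl2 in controls than in stressed mice was not shown as a difference. These comparisons share libraries with each other: the sex difference in controls and the stress difference in males both use the male controls.

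The members differed in how they followed the striatal score. In the fit with the score as a covariate, Fosb had a slope of 1.00 ± 0.15 log2 units per unit of score (SE, adjusted p = 2.57e-05), Fosl2 one of 0.71 ± 0.18 (adjusted p = 0.00795) and Junb one of 0.67 ± 0.17 (adjusted p = 0.00751). Thus 3 of 6 members rose with the score, as 16.7% of all genes moved with it in either direction. Slopes of Fos (0.21 ± 0.21), Jund (0.12 ± 0.08) and Jun (-0.13 ± 0.11) did not pass, with adjusted p of 0.548, 0.348 and 0.459.

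**Figure D2:**
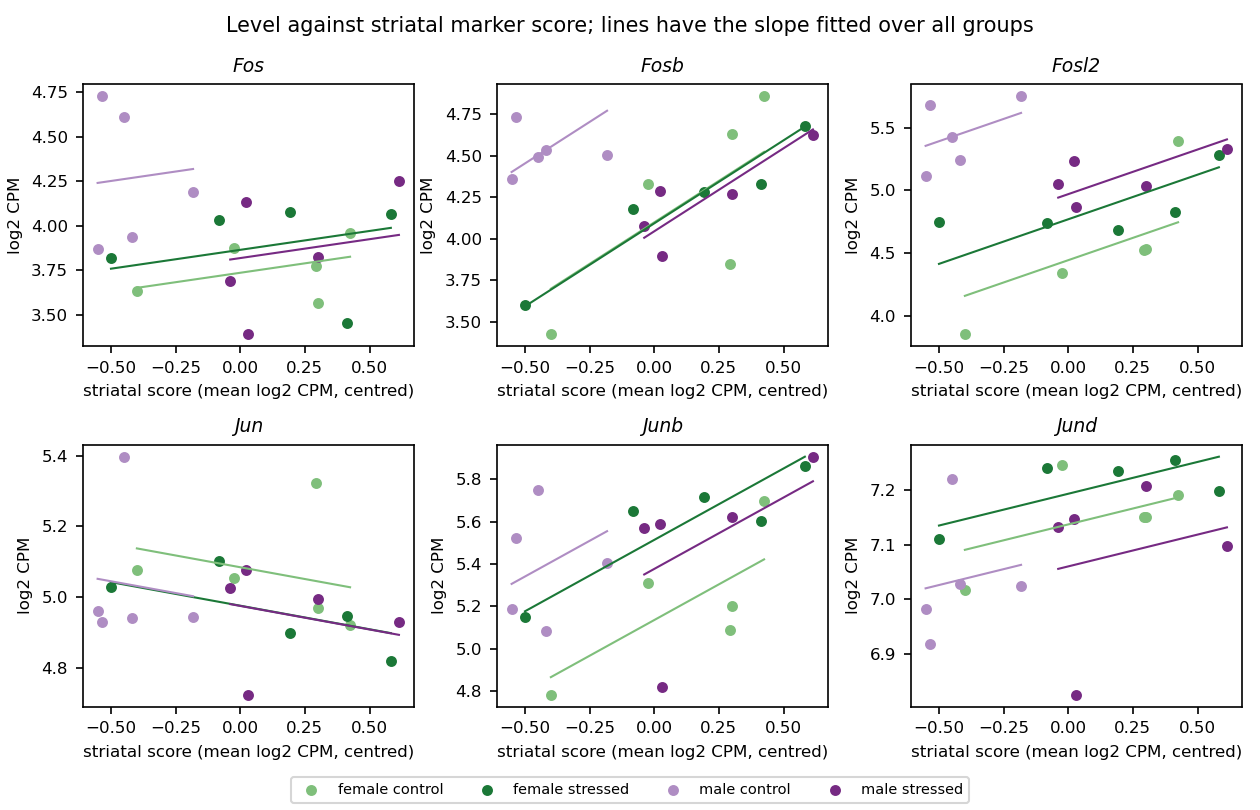
Level of each member in log2 CPM (vertical axes) against the striatal marker score (horizontal axes) in the 20 libraries, with 1 line a group at the slope fitted over all groups. Male controls sit at scores of -0.55 to -0.18, left of all stressed males, and lie above the lines of the other groups for Fosb and Fosl2.

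Within groups the slope of Fosb was 0.88 in stressed females, 0.84 in stressed males and 1.35 in female controls, but -0.07 in male controls, whose scores spanned 0.369 units against 0.652 to 1.08 in the other groups. For Fosl2 the within-group slopes were 1.44 and 1.00 in the female and male controls and 0.36 and 0.39 in the stressed females and males. Whether the slopes differed between groups was not tested. Across the 20 libraries without regard to group, 0 of 6 members correlated with the score after adjustment over the 6 tests (2, Junb and Jund, had an unadjusted permutation p under 0.05). After each library's value was centred on its group mean and permuted within groups, 3 members correlated with it: Fosb (Pearson r = 0.779, Spearman rho = 0.713, permutation adjusted p = 0.00516), Fosl2 (r = 0.645, rho = 0.638, adjusted p = 0.0130) and Junb (r = 0.618, rho = 0.502, adjusted p = 0.0138). The share of all genes that would pass this permutation test was not examined. Without the 2 libraries farthest from the median score, only Fosl2 still passed in the centred values (r = 0.595, adjusted p = 0.0151). Fosb kept a like r of 0.599 but missed the threshold (adjusted p = 0.0589). Junb had r = 0.433 (adjusted p = 0.165), so its relation rests in part on those libraries.

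Levels were then set to a score of 0 by each member's fitted slope. Fosb became 21.5, 20.4, 14, 11.7 and 19.99 CPM in female controls and 19.1, 16.99, 16.9, 15.01 and 17.03 CPM in stressed females. Male controls became 29.99, 25.7, 38.4, 30.9 and 30.7 CPM, and stressed males 17.2, 15.6, 16.1, 19.1 and 14.4 CPM. All 5 male controls then lay above all 15 other libraries for Fosb. The same held for Fosl2, at 45.5 to 66.7 CPM in male controls against 17.5 to 33.9 CPM in female controls, 23.1 to 34.2 CPM in stressed females and 28.1 to 37.2 CPM in stressed males. For Fos, male controls (15.7 to 28.5 CPM) lay above female controls (11.2 to 14.6 CPM) and overlapped the stressed groups. At score 0 the male and female controls were thus separate for 3 of 6 members (5.46% of all genes) and male controls and stressed males for 2 of 6 (3.06% of all genes). These adjusted values come from the fit itself, and the male controls were moved by a slope fitted over all 4 groups.

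**Figure D3:**
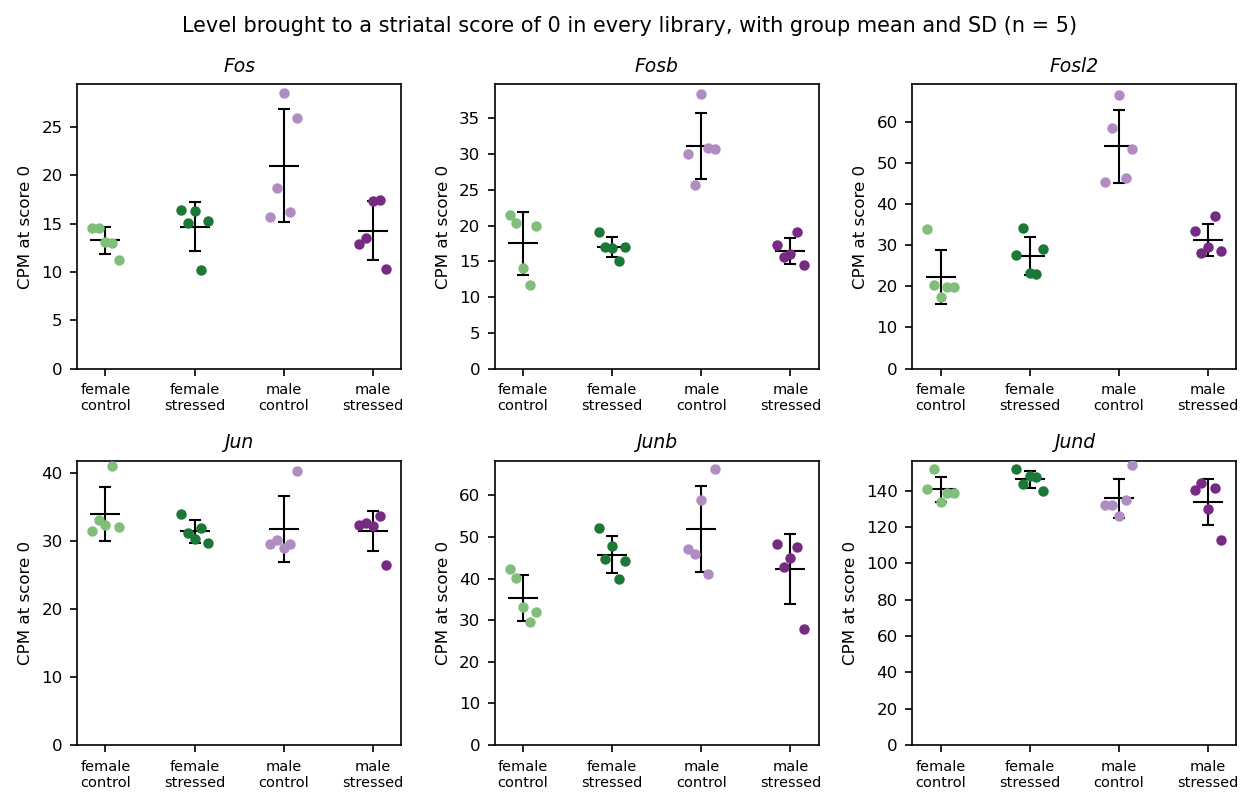
Level of each member in CPM set to a striatal score of 0 (vertical axes) in the 4 groups (horizontal axis); points are libraries and bars the mean ± SD of 5. Male controls lie above every other library for Fosb (25.7 to 38.4 CPM) and Fosl2 (45.5 to 66.7 CPM).

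With the score in the model, Fosl2 and Fosb were higher in control males than in control females, 2 of 6 members (0.554% of all genes were called). Fosl2 had a log2 fold change of 1.19 ± 0.19, a 2.28-fold ratio (adjusted p = 0.00213, rank 11 of all genes). Its levels at score 0, which restate the same fit, were above all female controls in 5 of 5 male control libraries. Fosl2 was called in 12 of 12 alternative analyses, with adjusted p between 1.01e-05 and 0.0155. It was also called in 10 of 10 refits that left out 1 library, with adjusted p between 3.44e-06 and 0.0478. The highest was found without female control replicate 3, the only female control within the score range of male controls. Fosb had 0.74 ± 0.15, a 1.67-fold ratio (adjusted p = 0.0183, rank 31), called in 10 of 12 alternatives and 9 of 10 refits. Without the score its estimate was 0.16 ± 0.21 (adjusted p = 0.781), so this difference rests on the fitted slope, which within male controls alone was -0.07. It was lost when the oligodendrocyte score was added (0.62, adjusted p = 0.0630), when only the 2 groups were fitted (0.89, adjusted p = 0.108) and without female control replicate 3 (0.55, adjusted p = 0.229). Fos (0.62 ± 0.21, adjusted p = 0.207) and Junb (0.51 ± 0.17, adjusted p = 0.214) did not pass. Other markers also moved with sex in controls. The endothelial score, the mean log2 level of its 10 genes, was 0.01 to 0.17 in female controls and -0.23 to -0.01 in male controls, with no overlap. The summed level of these genes did overlap, at 280.9 to 313.2 CPM in female and 254.3 to 288.5 CPM in male controls. Among these genes, Cldn5 was lower in males with (-0.48, adjusted p = 0.0234) and without the striatal score (-0.44, adjusted p = 0.0122). With the striatal score the thalamic marker Calb2 (-0.72, adjusted p = 0.0234) and the adBNST gene Esr1 (-0.86, adjusted p = 0.0136) were lower in males too, and 0 of 14 oligodendrocyte genes had a positive estimate. The adBNST genes did not move as a set: 7 of 12 had a positive estimate with the score. Without the score 8 of 12 did, and the 1 called, Tac2, was higher in males (0.84, adjusted p = 0.0306). The part of the astrocyte, endothelial and thalamic markers in the differences of Fosl2 and Fosb was not tested.

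Fosb was lower in stressed than in control males in that model, with a log2 fold change of -0.91 ± 0.15, a ratio of 0.534 (adjusted p = 0.0432). It was 1 of 6 members and the 1 gene called of all 12988 (0.00770%). At score 0, which restates the same fit, 5 of 5 stressed male libraries lay below all male controls. The call held in 9 of 12 alternatives and was lost, among others, with the robust option (adjusted p = 0.0599) and when only the 2 male groups were fitted (-0.71, adjusted p = 0.9998), and it held in 3 of 10 refits that left out 1 library. It was lost without male control replicate 3, 4 or 5 and without stressed male replicate 1, 2, 3 or 5, with adjusted p up to 0.157 and estimates from -0.92 to -0.84. Since the scores of the 2 male groups did not overlap, this difference rests on the fitted slope, and the unadjusted estimate of -0.26 ± 0.20 stands beside it. Fosl2 had -0.76 ± 0.18 (adjusted p = 0.659, rank 8), Fos -0.52 ± 0.21 (adjusted p = 0.789) and Junb -0.31 ± 0.18 (adjusted p = 0.821).

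**Figure D4:**
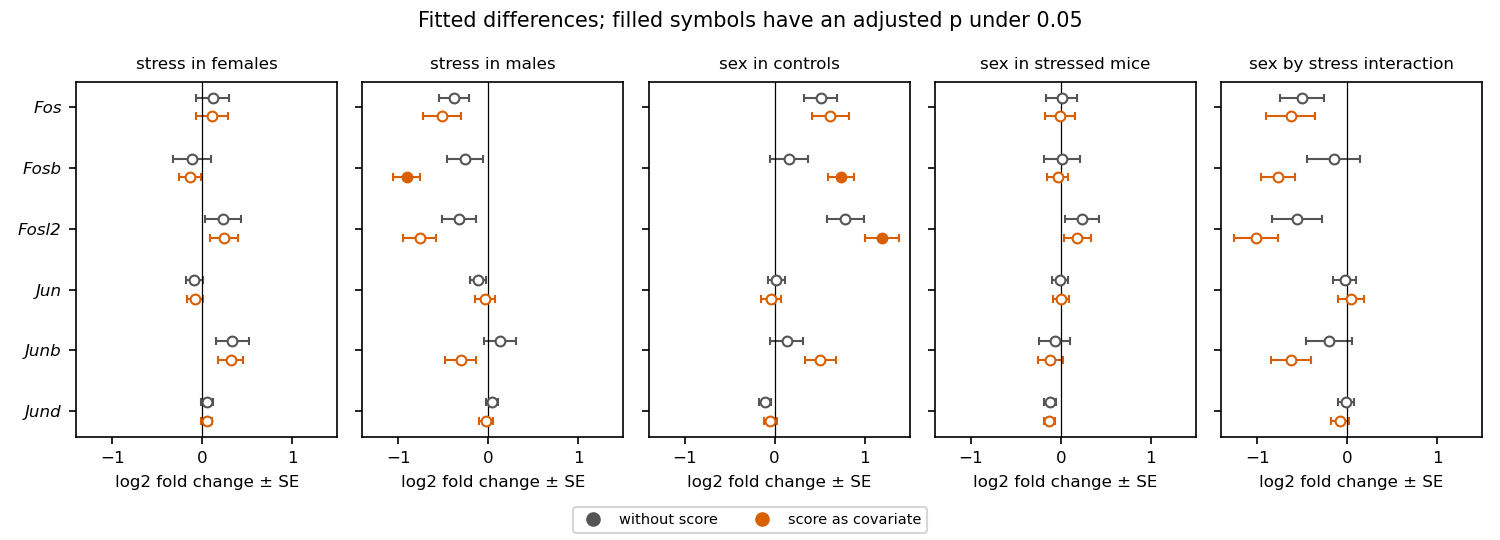
Fitted log2 fold change ± SE of each member (horizontal axes) in 5 comparisons, without (grey) and with (orange) the striatal score as a covariate; filled symbols have an adjusted p under 0.05. Filled symbols are Fosb for stress in males and Fosb and Fosl2 for sex in controls, all with the score.

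In females the estimates of the members moved by less than their SE. With the covariate 0 of 6 members were called for stress (0.00770% of all genes were), 1 had an unadjusted p under 0.05 and DESeq2 and limma-voom called 0. This was Junb, at 0.32 ± 0.14 (adjusted p = 0.453), close to its estimate without the score. In stressed mice 0 of 6 members were called for sex (0.115% of all genes were), 1, Jund, had an unadjusted p under 0.05 (-0.13 ± 0.06, adjusted p = 0.467), and neither other tool called a member. The interaction was called for 0 of 6 members (0.00770% of all genes), with 4 at an unadjusted p under 0.05: Fosl2 at -1.01 ± 0.24 (adjusted p = 0.160), Fosb at -0.77 ± 0.19 (adjusted p = 0.160), Fos at -0.63 ± 0.27 (adjusted p = 0.381) and Junb at -0.63 ± 0.23 (adjusted p = 0.309). DESeq2 called Fosb (adjusted p = 0.0253), limma-voom called none, and edgeR called Fosl2 without female control replicate 1 (-1.17, adjusted p = 0.00959). Averaged over the sexes, edgeR called 0 of 6 members for stress (0% of all genes), with 2, Fosb and Fosl2, at an unadjusted p under 0.05. Fosb ranked first of all genes there at -0.52 ± 0.10 (adjusted p = 0.207). DESeq2 called it (adjusted p = 0.00418), limma-voom called no member, and edgeR called it without female control replicate 4 (-0.56, adjusted p = 0.0382).

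Among themselves the members formed 7 of 15 pairs with a correlated level over the 20 libraries (permutation p adjusted over the 15 pairs). The closest was Fosb with Fosl2 (r = 0.695, rho = 0.659, adjusted p = 0.00870). Fos with Fosl2 (r = 0.643, adjusted p = 0.0152) and Fosb with Junb (r = 0.631, adjusted p = 0.0152) followed, and the pairs Junb with Jund, Fos with Junb, Fosl2 with Junb and Fos with Fosb had r between 0.506 and 0.597. Many other genes had values as high: among 12987 genes ranked by r with Fosb, Fosl2 stood at 11 and Junb at 27, while by r with Junb, Fos stood at 498 and Fosl2 at 591. The share of all gene pairs that would pass the same test was not examined, so the count of pairs has no background beside it. No pair that included Jun passed, with r of -0.242 with Fosb and -0.178 with Fosl2. By rank, Jun with Fosb had rho = -0.493 (permutation p adjusted over the 15 pairs, 0.0705). Without the 2 libraries farthest from the median of the first gene of each pair, 0 of 15 passed and the r of Fosb with Fosl2 was 0.558 (adjusted p = 0.102). These relations therefore rest in part on those libraries. Centred on group means, 6 pairs passed, led by Fosb with Junb (r = 0.781, adjusted p = 0.000600), and 3 of 15 still did so without the 2 farthest libraries. All libraries share their depth scaling, and the tissue composition of a library is common to its genes.

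**Figure D5:**
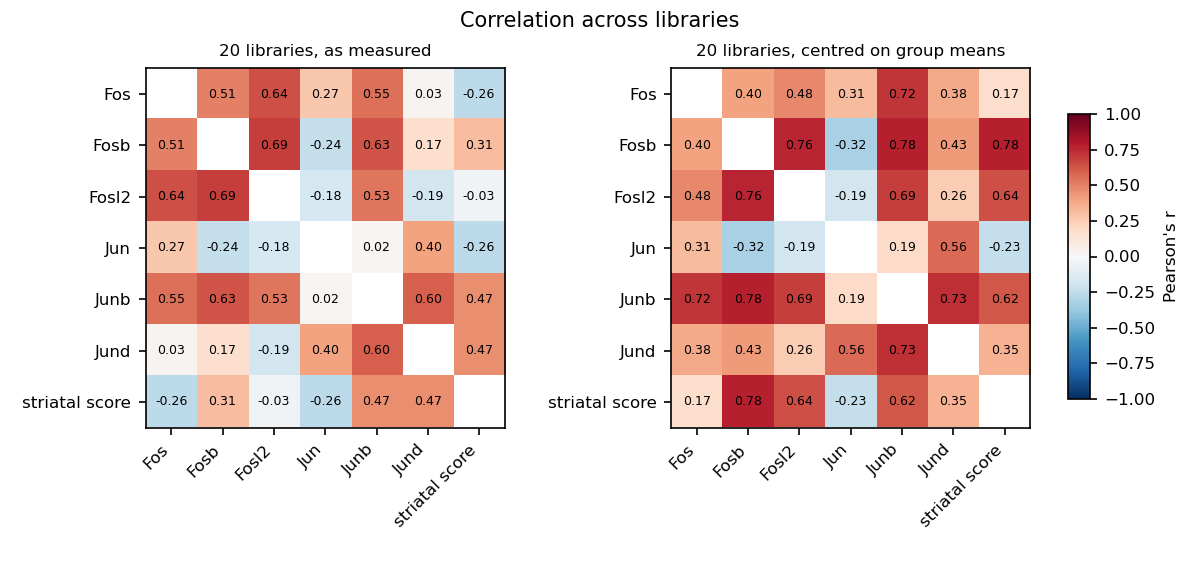
Pearson's r of log2 CPM between members and with the striatal score over 20 libraries, as measured (left) and centred on group means (right); colour runs from blue (-1) to red (1). Fos, Fosb, Fosl2 and Junb share positive values in both panels, and Jun has -0.242 with Fosb as measured.

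For each member the 3 genes of the table, other members left out, with the highest r over the 20 libraries were listed, as a description. Those of Fosl2 were Nr4a3 (r = 0.951), an orphan nuclear receptor gene of the immediate early class, Zfp12 (0.885) and Tiparp (0.842). Junb was most like Nr4a1 (0.916), also of that class, Arc (0.907), an activity-induced synaptic gene, and Nab2 (0.885), a corepressor of Egr factors. Nearest to Fosb were E2f3 (0.838), Ptpn1 (0.777) and Egr4 (0.756), and nearest to Fos were 1810013L24Rik (0.830), Apold1 (0.787) and Sik1 (0.756), a kinase gene induced by cyclic AMP. Jun was most like Slc27a4 (0.819), Hdac11 (0.810) and Mrps34 (0.795), and Jund most like Vstm2l (0.928), Snrpa (0.915) and Gapdh (0.906). None of the genes nearest to Jun or Jund belonged to the list of other immediate early genes.

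Pathway genes around AP-1 were read from lists of other bZIP partners (10 of 15 genes in the table), factors acting on AP-1 promoters (17 of 17), kinases (21 of 21), regulators of AP-1 turnover (10 of 10), described targets (17 of 20) and other immediate early genes (21 of 22). Without the score, edgeR called 0 genes of all 6 lists for stress in either sex. In females, 1, 2, 1, 0, 0 and 3 genes of the lists in that order had an unadjusted p under 0.05, against 976 of all 12988 genes, and DESeq2 and limma-voom called 0. In males the numbers were 2, 3, 9, 1, 5 and 5, against 2009 of all genes, limma-voom called 0, and DESeq2 called Mef2c of the factors, Camk2a, Camk4 and Mapk11 of the kinases, and Camk2a, Penk and Nts of the targets. The smallest edgeR p among the factors belonged to Mef2c (0.38, adjusted p = 0.0806), among the kinases to Mapk11, a p38 kinase gene (-0.53, adjusted p = 0.0871), and among the targets to Nts, the neurotensin gene (-0.40, adjusted p = 0.0907).

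Of the other immediate early genes, 6 of 21 were called between control males and females once the score was in the model (0.554% of all genes were). All 6 were higher in males, as Fosb and Fosl2 were. Per1, a clock gene that CREB also induces, was higher in control males by a log2 fold change of 0.60 ± 0.09 (adjusted p = 0.00139). Egr1 (0.79 ± 0.14, adjusted p = 0.00651), Nr4a1 (1.01 ± 0.19, adjusted p = 0.00988) and Nr4a3 (1.04 ± 0.20, adjusted p = 0.0123) were also higher. The remaining 2 called were Egr4 and Klf4. None of these 6 genes was called without the score by edgeR, DESeq2 or limma-voom, so their calls depend on the score in the model. Of the 21 genes 19 had a positive estimate, and the median of the list was 0.48 against -0.01 over all genes. DESeq2 called 7 of the 21 (152 of all 12988 genes) and limma-voom 4 (46 of all genes). Without the score, Trib1 was called in that comparison (0.51 ± 0.11, adjusted p = 0.0306), 1 of 21 against 0.747% of all genes, with a list median of 0.19. DESeq2 called Sik1, Klf2 and Trib1 there, and 248 of all 12988 genes. Per1 was also called with the score for stress in females, where it rose by 0.46 ± 0.07 (adjusted p = 0.0414), and for the interaction (-0.73 ± 0.12, adjusted p = 0.0372). In stressed males with the score, 0 of 21 were called, 10 had an unadjusted p under 0.05 (813 of all 12988 genes did), and DESeq2 and limma-voom called 0. The list median was then -0.28, with 1 of 21 positive, against 0.01 over all genes. Without the score it was 0.01, with 12 of 21 positive. Of the other 5 lists, edgeR called 0 genes in all 6 comparisons with the score, while DESeq2 called the kinase gene Mapk14 for sex in controls. In that comparison 2, 3, 2, 2 and 4 genes of those lists had an unadjusted p under 0.05, against 1640 of all 12988 genes. For stress in males 2, 2, 0, 1 and 2 did, against 813 of all genes.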

How the data were processed

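The deposited table holds whole-number counts per gene that the authors made. STAR, featureCounts and mm10 are named in the submitters' processing notes, and versions, settings and annotation are not given in the sources used here. The lowest row total was 1002. All 20 columns matched a sample by name.

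Counts were fitted with edgeR 4.0.16 (R 4.3.3): TMM factors, filterByExpr (which kept all 12988 genes), 1 mean per group over all 20 libraries, and quasi-likelihood F tests (robust option off). A second fit added the striatal score, taken from log2 CPM with a prior count of 2, as a covariate. P-values are two-sided, adjusted by the Benjamini-Hochberg method over 12988 genes, and called under 0.05; every adjusted p of a fold change or slope comes from this edgeR test unless another tool is named. CPM used the TMM factors. The level at score 0 is the CPM divided by the fitted effect of a library's score. The common biological coefficient of variation was 8.83%, and 7.33% with the score. Correlations used log2 CPM and 100000 permutations, two-sided. On simulated data with 200 genes changed by a fold of 2, edgeR recovered 198 for stress in males, with 11 false calls, and 192 for the interaction, with 10. Each gene otherwise had the same mean in all libraries. Recovery of smaller changes, or with striatal scores that differ between groups, was not tested.

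Alternatives were DESeq2 1.42.0, limma-voom (limma 3.58.1), DESeq2 size factors, a minimum mean of 10 CPM, no filter, the replicate number as a block, the robust option, depth or the oligodendrocyte score as covariates, a score from 3 receptor genes, only the groups compared, and leaving out each library; a correction for GC content and length (12818 genes, 98.69%, lowess span 0.3) was added after seeing the data. Promoter sequences are from RefSeq (GRCm38.p6), found for all 6 members, and gene positions and lengths from GENCODE M21. Exon unions include retained-intron models. Replicates differed beyond sampling noise in all 40 pairs (chi-square per degree of freedom 1.88 to 39.4), and counting limits precision in the shallow libraries.

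The members and all lists were chosen with earlier results of these data known. Genes named besides the members were the 3 most like each member and, per pathway list and comparison, up to 4 called genes with the smallest p or else the 1 with the smallest p, of which those of the main comparisons are printed; genes that only DESeq2 called, Egr4, Klf4 and single marker genes were named after their values were seen.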

Additional observations from a re-analysis of the deposited data

Results flagged for a closer look

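Each of the 24 sets of 5 libraries (6 members in 4 groups) was checked for a library far from the rest, and chance marks about 1 in 20 such sets. Fosl2 in female stressed replicate 5, at 38.8 CPM, lay apart from the next library of its group at 28.3 CPM, a gap of 0.792 of the group's range. Jun in male control replicate 5, at 42.02 CPM, lay apart from the next at 31.1 CPM, a gap of 0.942 of the range.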

How the results depend on the processing

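Member calls were counted again under each alternative. Without the score, the count for sex in controls was 1 in place of 0 (Fosl2) with DESeq2, with the oligodendrocyte score and with the GC and length correction, and 0 to 1 when 1 library was left out; the counts of the other 5 comparisons without the score stayed 0 throughout. With the score, the count for stress in males was 0 in place of 1 with the replicate number as a block, the robust option and only the groups compared, and 0 to 1 leaving out 1 library. For sex in controls it was 1 in place of 2 (Fosl2 remaining) with the oligodendrocyte score and with only the groups compared, and 1 to 2 leaving out 1 library. The interaction gave 1 in place of 0 with DESeq2 and the average over sexes 1 with DESeq2 and with the oligodendrocyte score, both 0 to 1 leaving out 1 library. The cause was not tested, except that leaving out a library or fitting only 2 groups uses fewer samples. Members correlated with the score numbered 3 in place of 0 in values centred on group means, 1 when centred without the 2 farthest libraries, and 0 to 2 leaving out 1 library, with the 2 found without male control replicate 5. Correlated pairs numbered 0 in place of 7 without the 2 farthest libraries, 3 when also centred, and 1 to 7 leaving out 1 library, with 1 found without female control replicate 3 and 4 without female control replicate 4, male control replicate 5, or stressed male replicate 3 or 5. Of 38 differences of a member larger than their SE, 1 changed sign in 944 refits: Jun for stress in males, -0.1536 to 0.0047 leaving out 1 library, with the positive value found without male control replicate 5. Of the 34 smaller ones, 22 did so at least once. Over all genes, and without the score, DESeq2 called 248 genes for sex in controls, 239 for stress in males and 22 for the interaction, where edgeR called 97, 1 and 0 and limma-voom 63, 1 and 0. With the score DESeq2 called 28 for stress in females, 152 between control males and females and 42 for the interaction, against 1, 72 and 1 by edgeR and 5, 46 and 1 by limma-voom.

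Replicate numbers recur in all 4 groups. Same-numbered libraries did not deviate together: correlations over 30 pairs ran from -0.473 to 0.237, 5 of them over 0.1, and 1 of 20 libraries correlated best with its own number. With the replicate number as a block, the count for stress in males with the score was 0 (Fosb adjusted p = 0.190) and that for sex in controls with the score was 2.

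The depth of 36 reads of Fos in the shallowest library limits single values there. Pools of 3 mice hide the spread between mice, and the non-overlapping scores of the male groups limit the adjusted comparison of stress in males. The adjusted comparison of sex in controls is limited likewise, since only female control replicate 3 lay within the score range of male controls.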
